A study of Mus musculus with 12 samples.

Results

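Genes of plasma cell differentiation and antibody secretion were followed in sorted mouse B cells. The 9 genes were Prdm1, Xbp1, Sdc1, Mzb1, Tnfrsf17, Creld2, Derl3, Fkbp11 and Ell2, chosen by symbol, and all 9 had a named locus among the 43613 genes measured. RNA sequencing had been run on 12 libraries in 4 groups of 3, from spleens of female C57BL/6 mice aged 6 months. Every group carried the lupus susceptibility interval Sle1b. The groups were non-germinal centre (non-GC) B cells, sorted as B220+GL7-CD95-, and germinal centre (GC) B cells, sorted as B220+GL7+CD95+, each from B6.Sle1b mice and from B6.Sle1b.IFNaR1-/- mice, labelled as lacking Ifnar1, which encodes part of the receptor for type I interferons. The second genotype is called Ifnar1KO here, after its label. The design asks how interferon receptor signalling affects B cells selected in autoimmune-prone germinal centres. The labels describe sorting from splenocyte pools. A batch is here a set of 4 libraries, 1 of every group, that the authors' tables compare with each other, and a library is named by its group and batch. No label ties the 3 libraries of a group to separate animals, so p-values measure only a spread between samples that may be technical.

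A B cell that becomes a plasma cell switches from sensing antigen to secreting antibody. The repressor Blimp-1, encoded by Prdm1, shuts down B cell identity genes such as Pax5 and Bcl6, while the transcription factor XBP1, made active by splicing of its messenger RNA in endoplasmic reticulum (ER) stress, raises the ER's capacity to fold, modify and export protein. Germinal centres give rise to plasma cells, but most GC B cells keep Prdm1 low while Bcl6 is high. XBP1 and the stress sensor ATF6 are known to bind the ER stress response element (ERSE), a CCAAT box separated by 9 bases from CCACG.

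Promoters are shown first because 2 of the 3 genes that were higher in GC cells in every pair of batches 1 and 2, Creld2 and Derl3, held a complete ERSE, whereas the third, Prdm1, did not. These 3 genes and the motif were picked with the levels known, and a link between the element and the levels was not tested. The sequences are the 250 bases before the RefSeq start (GRCm38.p6), read along the gene's strand from 5′ to 3′, with the 2 ends of the ERSE in capitals as they lie on that strand.
Creld2: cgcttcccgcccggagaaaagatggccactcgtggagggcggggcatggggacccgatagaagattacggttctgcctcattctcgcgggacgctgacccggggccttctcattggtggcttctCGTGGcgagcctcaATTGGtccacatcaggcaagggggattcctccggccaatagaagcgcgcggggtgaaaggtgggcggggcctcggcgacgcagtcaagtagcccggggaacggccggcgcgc
Derl3: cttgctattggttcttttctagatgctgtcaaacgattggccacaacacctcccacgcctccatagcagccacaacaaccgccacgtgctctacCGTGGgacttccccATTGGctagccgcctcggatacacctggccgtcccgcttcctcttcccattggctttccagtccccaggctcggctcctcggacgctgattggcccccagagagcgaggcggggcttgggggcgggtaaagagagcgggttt
Prdm1: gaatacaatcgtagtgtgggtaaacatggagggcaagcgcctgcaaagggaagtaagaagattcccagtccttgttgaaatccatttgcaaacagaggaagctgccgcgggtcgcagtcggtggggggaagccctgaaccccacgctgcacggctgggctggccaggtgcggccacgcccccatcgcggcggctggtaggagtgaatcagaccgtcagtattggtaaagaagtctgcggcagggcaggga
The Creld2 window lies on chromosome 15 from 88819396 to 88819645 on the plus strand, and the capitals span positions -126 to -108 from the start. The Derl3 window lies on chromosome 10 from 75893148 to 75893397 on the plus strand, and its capitals span -156 to -138. In both, the element reads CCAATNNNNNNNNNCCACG on the opposite strand. The Prdm1 window lies on chromosome 10 from 44458749 to 44458998 on the minus strand, inside the deposited Prdm1 locus, whose upstream end is farther away.

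RefSeq promoters were searched for 8 of the 9 genes, all but Mzb1, and there were 9 in all since Fkbp11 had more than one. The 6 motifs were searched on both strands and were chosen with the levels of these genes known. The ERSE was in 0.113% of the 32851 promoters of the same length, and among the 8 genes searched in Creld2 and Derl3 only. Its parts were common: CCAAT was in 33.8% of all promoters and in those of Creld2, Derl3, Ell2, Fkbp11, Prdm1 and Sdc1, and CCACG was in 28.3% and in those of Creld2, Derl3, Fkbp11, Prdm1 and Sdc1. TGACGTGG, the unfolded protein response element, was in 0.563% of promoters and in none of the 9 promoters searched for these genes. GAAAG, the core bound by Blimp-1 and interferon regulatory factors, was in 51.5% of promoters and in those of Creld2, Derl3, Fkbp11 and Tnfrsf17. GAAANNGAAA, part of the interferon-stimulated response element, was in 2.98% of promoters and among the genes searched in Tnfrsf17 only. CCAAT and CCACG overlap the ERSE by construction, and CCACG overlaps TGACGTGG on its opposite strand. A match is a description of the letters and not a measured binding site.

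Libraries of batch 3 stood apart before any comparison. Of the 36 values of the 9 genes in each batch, 24 were listed at 0 in batch 3 and 5 in each of batches 1 and 2. The summed level of 6 B cell markers was 1072 to 2032 FPKM (fragments per kilobase of transcript, scaled to library size) in batches 1 and 2 but 15.8 and 22.0 FPKM in the GC libraries of batch 3, and 142 and 153 FPKM in its non-GC libraries. The summed level of 7 GC markers was 285 to 945 FPKM in GC and 52.5 to 89.7 FPKM in non-GC libraries of batches 1 and 2, whereas in batch 3 it was 18.7 to 20.8 FPKM in all 4, so these markers did not separate the sorted groups there. The difference of each tested gene between GC and non-GC cells over both genotypes is therefore given for all 3 batches and for batches 1 and 2 alone. Reads on named genes, estimated from the value of a single read, ranged from 804000 in Sle1b GC 3 to 6974000 in Sle1b non-GC 3. In batch 3, 3 reads, the limit that a count of 0 allows, correspond to 0.0937 to 0.173 FPKM for the long Prdm1 transcript and 0.637 to 1.18 FPKM for the short Mzb1 transcript, for counting error only.

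Ifnar1 itself did not follow its label. In non-GC cells it was at 14.5, 36.1 and 3.45 FPKM in Sle1b and at 51.1, 69.1 and 2.58 FPKM in Ifnar1KO, in batches 1, 2 and 3. In GC cells it was at 8.11, 9.89 and 6.80 FPKM in Sle1b and at 14.1, 15.4 and a listed 0 FPKM in Ifnar1KO. The locus was thus higher in the libraries labelled Ifnar1KO in both cell types of batches 1 and 2. The value covers the whole locus and does not settle the genotype, and every direction between genotypes below rests on the labels.

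**Figure D1:**
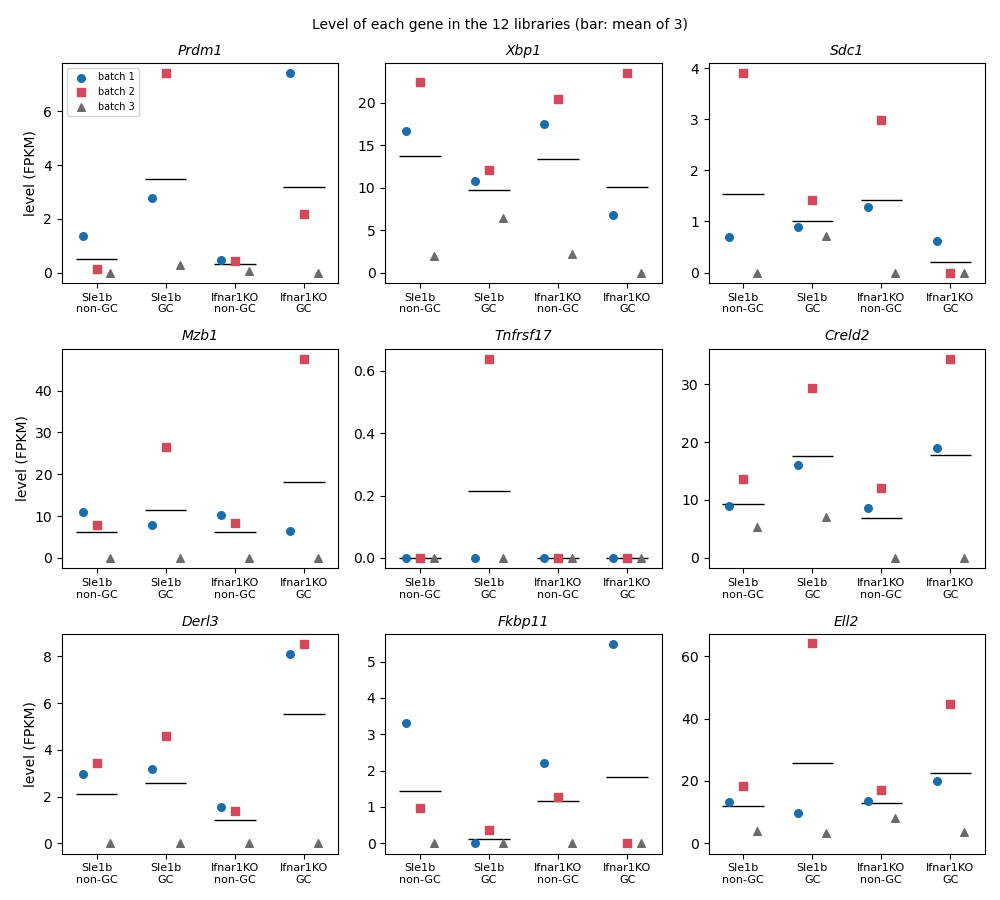
Level in FPKM (y axis, linear, a separate scale for each gene) of the 9 genes in the 4 groups; each point is 1 library, its shape and colour the batch, and the bar is the mean of 3 libraries. Batch 3 lies at or near 0 for most genes, and in batches 1 and 2 the GC points of Prdm1, Creld2 and Derl3 lie above the non-GC points of the same genotype and batch.

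Prdm1, on chromosome 10 from 44437177 to 44528501 (GRCm38), was the regulator with the largest separation of GC from non-GC cells. Its levels in batches 1, 2 and 3 were 1.36, 0.14 and 0 FPKM in Sle1b non-GC and 2.77, 7.42 and 0.30 FPKM in Sle1b GC cells. In Ifnar1KO they were 0.49, 0.43 and 0.056 FPKM in non-GC and 7.41, 2.17 and 0 FPKM in GC cells. All 4 GC libraries of batches 1 and 2 lay above all 4 non-GC libraries, while in batch 3 Prdm1 was higher in GC cells of Sle1b and lower in those of Ifnar1KO, on at most about 5 reads. These levels rested on about 4 to 46 reads in the non-GC and 27 to 181 reads in the GC libraries of batches 1 and 2. Differences are of log2(FPKM + 1), a scale that compresses changes at low levels. The GC minus non-GC difference over both genotypes was 1.25 (SE 0.46, 95% interval 0.25 to 2.25), with a limma adjusted p of 0.203 over 14607 genes. Without batch 3 it was 1.80 (SE 0.55, limma adjusted p = 0.0933 over 12257 genes). The difference therefore did not pass the threshold of 0.05 in either fit.

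Xbp1, on chromosome 11 from 5520659 to 5525956, had a higher level than Prdm1 in every library except Ifnar1KO GC 1 and 3, and its pairs did not share a direction. It stood at 16.6, 22.5 and 1.95 FPKM in Sle1b non-GC and at 10.8, 12.1 and 6.37 FPKM in Sle1b GC cells. In Ifnar1KO it stood at 17.5, 20.5 and 2.24 FPKM in non-GC and at 6.73, 23.5 and 0 FPKM in GC cells. The Sle1b GC libraries of batches 1 and 2 were both below their non-GC libraries, those of Ifnar1KO overlapped their non-GC libraries, and Sle1b GC 3 was above its non-GC library. In Sle1b the difference was -0.036 (SE 0.65, limma adjusted p = 0.992), and -0.71 (SE 0.54, limma adjusted p = 0.597) in batches 1 and 2. In Ifnar1KO it was -0.92 (SE 0.65, limma adjusted p = 0.569), and -0.54 (SE 0.54, limma adjusted p = 0.607) in batches 1 and 2. The difference over both genotypes was -0.48 (SE 0.46, limma adjusted p = 0.614), and -0.63 (SE 0.38, limma adjusted p = 0.347) in batches 1 and 2. These values count all Xbp1 RNA and do not separate the spliced form.

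Ell2 encodes an RNA polymerase II elongation factor that favours the secreted form of the immunoglobulin heavy chain messenger RNA, and lies on chromosome 13 from 75707484 to 75772356. Its levels were 13.2, 18.4 and 4.06 FPKM in Sle1b non-GC and 9.81, 64.1 and 3.24 FPKM in Sle1b GC cells. They were 13.4, 17.0 and 8.10 FPKM in Ifnar1KO non-GC and 19.9, 44.6 and 3.52 FPKM in Ifnar1KO GC cells. The GC libraries of batch 2 were the highest of all 12, Sle1b GC 1 was below its non-GC library, and both GC libraries of batch 3 were below theirs. The difference over both genotypes was 0.33 (SE 0.44, limma adjusted p = 0.728), and 0.81 (SE 0.43, limma adjusted p = 0.281) in batches 1 and 2. The annotation places 3 other genes within or across Ell2, 1700037F03Rik antisense to it, Gm48302 and Gm23127, and since strand-specific counting is not stated, their reads cannot be told apart.

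Among surface genes, Sdc1 encodes syndecan-1 (CD138), the proteoglycan used to sort plasma cells, and lies on chromosome 12 from 8771323 to 8793715. It was low throughout, at 0.69, 3.90 and 0 FPKM in Sle1b non-GC and 0.90, 1.42 and 0.72 FPKM in Sle1b GC cells. In Ifnar1KO it was at 1.28, 2.99 and 0 FPKM in non-GC and at 0.62, 0 and 0 FPKM in GC cells. The highest levels were those of the non-GC libraries of batch 2, and GC and non-GC overlapped in Sle1b. Its GC minus non-GC difference was -0.43 (SE 0.40, limma adjusted p = 0.608) over both genotypes, and -0.84 (SE 0.50, limma adjusted p = 0.335) in batches 1 and 2.

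Tnfrsf17 encodes BCMA, a receptor for the survival factors BAFF and APRIL on plasma cells, and lies on chromosome 16 from 11313812 to 11320074. It was measured at 0.64 FPKM, about 2 reads, in Sle1b GC 2 and was listed at 0 in the other 11 libraries. At this depth 3 reads correspond to 0.568 to 1.86 FPKM for this gene, the highest level that a count of 0 allows in a library. It did not pass the filter of 1 FPKM in at least 3 libraries and was not tested, which left 8 tested genes.

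None of the 4 secretory genes passed the test, and in batches 1 and 2 the GC levels of Creld2 and Derl3 lay above the non-GC levels of the same pair. Creld2, an ER protein that helps form and isomerise disulfide bonds, lies on chromosome 15 from 88819646 to 88826681. Its levels were 8.93, 13.7 and 5.41 FPKM in Sle1b non-GC and 16.0, 29.4 and 7.12 FPKM in Sle1b GC cells. In Ifnar1KO they were 8.53, 12.1 and 0 FPKM in non-GC and 19.0, 34.4 and 0 FPKM in GC cells. For batches 1 and 2 each GC library was above all 4 non-GC libraries, by a ratio of 1.80 and 2.15 in Sle1b and of 2.22 and 2.85 in Ifnar1KO within batches. The difference over both genotypes was 0.78 (SE 0.52, 95% interval -0.36 to 1.91, limma adjusted p = 0.460). Without batch 3 it was 1.08 (SE 0.32, 95% interval 0.35 to 1.81, limma adjusted p = 0.0863), the lowest adjusted p of any tested gene of the set, and still above 0.05.

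Derl3, a derlin that takes part in moving misfolded proteins out of the ER for degradation, lies on chromosome 10 from 75893398 to 75895941. It measured 2.95, 3.44 and 0 FPKM in Sle1b non-GC and 3.19, 4.58 and 0 FPKM in Sle1b GC cells. In Ifnar1KO it measured 1.55, 1.40 and 0 FPKM in non-GC and 8.09, 8.54 and 0 FPKM in GC cells. The GC level was 1.08 and 1.33 times the non-GC level in Sle1b and 5.22 and 6.12 times in Ifnar1KO, in batches 1 and 2. Those Ifnar1KO levels rested on about 15 and 7 reads in non-GC and about 42 and 24 reads in GC cells. In Ifnar1KO the GC minus non-GC difference was 1.28 (SE 0.56, 95% interval 0.06 to 2.49, limma adjusted p = 0.391), and 1.91 (SE 0.62, limma adjusted p = 0.171) in batches 1 and 2. In Sle1b it was 0.14 (SE 0.56, limma adjusted p = 0.961), and 0.21 (SE 0.62, limma adjusted p = 0.916) in batches 1 and 2. Over both genotypes it was 0.71 (SE 0.40, limma adjusted p = 0.368), and 1.06 (SE 0.44, limma adjusted p = 0.181) without batch 3. The difference between the genotypes, tested as the interaction of genotype and cell type, was 1.14 (SE 0.79, limma adjusted p = 0.992), and 1.70 (SE 0.88, limma adjusted p = 0.918) in batches 1 and 2, so the genotypes were not shown to differ.

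Mzb1, an ER co-chaperone of B cells that assists antibody assembly, lies on chromosome 18 from 35646258 to 35649436. Its levels were 11.0, 7.86 and 0 FPKM in Sle1b non-GC and 7.86, 26.5 and 0 FPKM in Sle1b GC cells. They were 10.2, 8.35 and 0 FPKM in Ifnar1KO non-GC and 6.44, 47.6 and 0 FPKM in Ifnar1KO GC cells. The GC libraries were lower than their non-GC libraries in batch 1 and higher in batch 2, in both genotypes, and the difference over both was 0.50 (SE 0.47, limma adjusted p = 0.605). Without batch 3 it was 0.75 (SE 0.56, limma adjusted p = 0.444). An annotated gene, SPATA24, overlaps the Mzb1 locus on the same strand, which makes the Mzb1 value less certain.

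Fkbp11, an ER peptidyl-prolyl isomerase of secretory cells, lies on chromosome 15 from 98724373 to 98728198 and rested on few reads. It measured 3.31, 0.98 and 0 FPKM in Sle1b non-GC and 0, 0.37 and 0 FPKM in Sle1b GC cells, at most about 12 and 1 reads. In Ifnar1KO it measured 2.21, 1.26 and 0 FPKM in non-GC and 5.49, 0 and 0 FPKM in GC cells. The highest level, in Ifnar1KO GC 1, came from about 14 reads, while the other GC libraries of that genotype were listed at 0. The difference over both genotypes was -0.47 (SE 0.43, limma adjusted p = 0.599), and -0.70 (SE 0.57, limma adjusted p = 0.483) in batches 1 and 2.

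**Figure D2:**
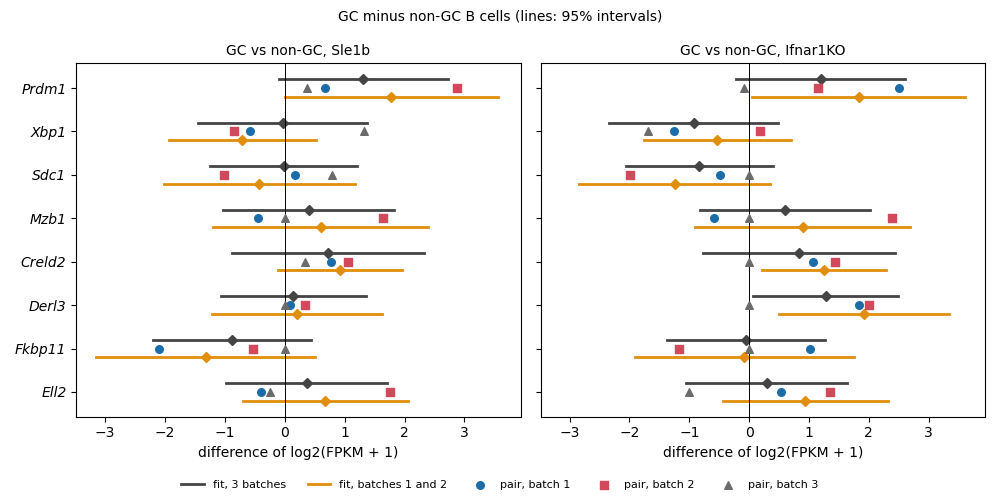
Difference between GC and non-GC cells of log2(FPKM + 1) (x axis) for the 8 tested genes (y axis), in Sle1b (left) and Ifnar1KO (right); small points are the pairs of the 3 batches, diamonds with lines the limma estimate with its 95% interval from all 3 batches and from batches 1 and 2. Prdm1, Creld2 and Derl3 have both pairs of batches 1 and 2 above 0 in each genotype, whereas Mzb1 lies on both sides.

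In the comparison of GC with non-GC cells over both genotypes, 0 of the 8 tested genes passed the threshold, beside 4 of 14607 genes in all (0.0274%). At an unadjusted p under 0.05, 1 of the 8 genes and 2556 of all genes (17.5%) passed. In batches 1 and 2 alone the count was again 0 of 8, beside 562 of 12257 genes (4.59%), of which 222 were higher and 340 lower in GC cells, and 3 of the 8 passed unadjusted, beside 3033 of all genes (24.7%). The median difference of the 8 genes was 0.41 against -0.25 for all genes tested, and 0.78 against -0.34 in batches 1 and 2. Within Sle1b 0 of 8 passed, with 0 of 14607 genes called (0.0%; 1387 unadjusted) in all 3 batches and 7 of 12257 (0.0571%) in batches 1 and 2. Within Ifnar1KO 0 of 8 passed, with 1 of 14607 (0.00685%) and 38 of 12257 (0.31%).

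Prdm1, Creld2 and Derl3, 3 of the 8 tested genes, had a GC level above the non-GC level in all 4 pairs of batches 1 and 2, a count made after their values were seen. Over 12257 genes, 8.22% were higher and 21.1% lower in all 4 pairs. No tested gene was lower in all 4 pairs, Xbp1, Sdc1 and Fkbp11 were lower in 3 and Ell2 was higher in 3. With all 3 libraries a group, GC and non-GC overlapped for each of the 8 genes in both genotypes, while 2.31% of all genes were higher and 2.24% lower without overlap in Sle1b, and 1.22% and 3.61% in Ifnar1KO. Restricted to batches 1 and 2, Prdm1 and Creld2 were higher (16.7% of all genes) and Xbp1 and Fkbp11 lower (20.5%) without overlap in Sle1b. The corresponding genes in Ifnar1KO were Prdm1, Creld2, Derl3 and Ell2 (10.6% of all genes higher) and Sdc1 (33.1% lower).

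Summed over the 9 genes, the level was 51.3 and 146 FPKM in Sle1b GC against 58.1 and 70.8 FPKM in Sle1b non-GC cells in batches 1 and 2. In Ifnar1KO it was 73.7 and 161 FPKM in GC against 55.2 and 64.0 FPKM in non-GC cells. The sum was higher in GC cells in 3 of these 4 pairs, with Sle1b GC 1 the exception. It is set mostly by the genes with the highest FPKM. In Sle1b of batch 2, Ell2 was at 64.1 FPKM in GC against 18.4 FPKM in non-GC cells, and Mzb1 at 26.5 against 7.86 FPKM. In that pair Xbp1, Sdc1 and Fkbp11 were lower in GC cells and the other genes higher. The sum in batch 3 was lower than in batches 1 and 2. In batch 3 the summed level was 17.8 FPKM in GC against 11.4 FPKM in non-GC cells of Sle1b, and 3.52 against 10.4 FPKM in Ifnar1KO. In bulk samples fewer cells of a type and less RNA per cell cannot be told apart, and this holds for each value here.

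Markers of other cell types were read beside these results. The summed level of 6 myeloid markers was 95.1 FPKM in Sle1b GC 1 and 0.068 to 19.6 FPKM in the other 11 libraries, and that of 7 erythroid and platelet markers was 90.7 FPKM there and 0 to 26.4 FPKM elsewhere. That of 6 T cell markers was 73.7 FPKM in Sle1b GC 3 and 6.24 to 27.3 FPKM in the other 11 libraries. In Sle1b GC 3, Cd4 and Lck stood at 32.5 and 32.8 FPKM and Cd3e at 5.69 FPKM. Cd3d was at 2.75 FPKM there, and Cd3g and Cd8a at 0. In Ifnar1KO GC 3 the T cell sum was 26.8 FPKM, from Cd3d at 19.6 FPKM and Lck at 7.19 FPKM alone. Cd3e, Cd3g, Cd4 and Cd8a were listed at 0 in that library. Both GC libraries of batch 3 thus had a T cell sum above their B cell marker sum, 15.8 and 22.0 FPKM. Plasmacytoid dendritic cells carry B220 and are also known to express Xbp1, Mzb1 and Derl3. Of 7 of their markers, Siglech was called lower in GC cells in batches 1 and 2 (log2 difference -2.28, limma adjusted p = 0.0274) but not with all 3 batches (-1.97, limma adjusted p = 0.129). Klk1 and Cox6a2 were listed at 0 in all 6 GC libraries, and also in 3 and 4 of the 6 non-GC libraries, and Siglech and Bst2 were listed at 0 in all 3 Ifnar1KO GC libraries. Tcf4 and Pacsin1 of the same list stood at 0.45 (limma adjusted p = 0.464) and 0.39 (limma adjusted p = 0.650) in batches 1 and 2, and at -0.52 and 0.26 with all 3 batches. The list's summed level was 17.1 to 73.1 FPKM in Sle1b non-GC, 3.37 to 91.8 FPKM in Sle1b GC, 23.7 to 65.4 FPKM in Ifnar1KO non-GC and 1.36 to 64.0 FPKM in Ifnar1KO GC cells. The part of these cells in the levels of Xbp1, Mzb1 and Derl3 was not tested.

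Of 5 tested plasma cell markers outside the 9 genes, 2 were called higher in GC cells in batches 1 and 2 and none with all 3 batches. Igj, the joining chain of secreted IgM and IgA, was at 27.0 and 48.3 FPKM in Sle1b GC against 5.65 and 1.51 FPKM in Sle1b non-GC cells of batches 1 and 2, and at 14.0 and 21.1 FPKM against 4.63 and 0.19 FPKM in Ifnar1KO. Slamf7, a surface receptor of plasma cells and other lymphocytes, was at 94.5 and 41.8 FPKM against 9.58 and 17.1 FPKM in Sle1b, and at 33.6 and 43.2 FPKM against 15.7 and 19.3 FPKM in Ifnar1KO. Both were higher in GC cells in all 4 pairs and passed the test in batches 1 and 2, with differences of 3.00 (SE 0.57, limma adjusted p = 0.0283) for Igj and 1.65 (SE 0.38, limma adjusted p = 0.0477) for Slamf7. The 94.5 FPKM of Slamf7 was that of Sle1b GC 1, the library with the highest summed myeloid and erythroid markers. The part of other cell types in that level was not tested. The other markers did not pass in batches 1 and 2, with Cd28 at 1.05 (limma adjusted p = 0.334), Txndc5 at 0.65 (limma adjusted p = 0.294) and Irf4 at -0.68 (limma adjusted p = 0.199). With all 3 batches neither Igj nor Slamf7 passed (limma adjusted p = 0.145 and 0.279), and Igj was listed at 0 in all 4 libraries of batch 3.

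**Figure D3:**
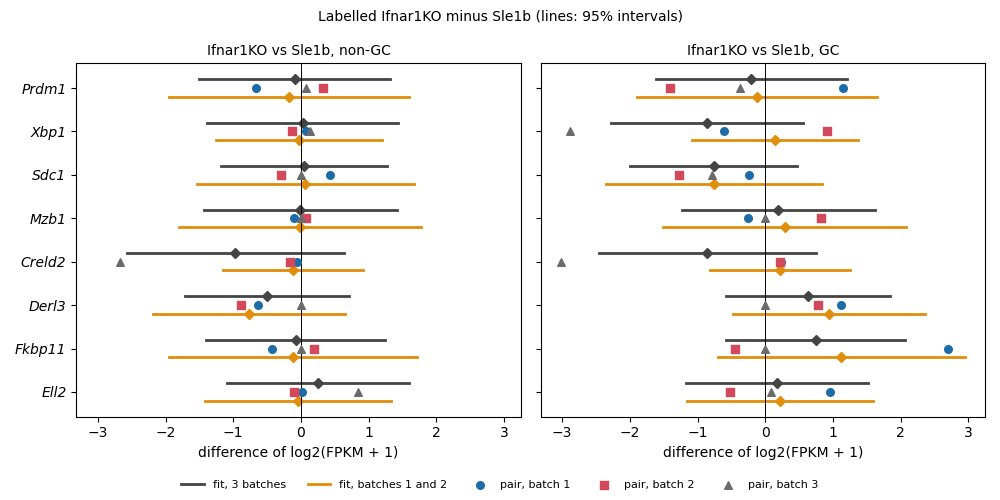
Difference between labelled Ifnar1KO and Sle1b of log2(FPKM + 1) (x axis) for the 8 tested genes (y axis), in non-GC (left) and GC cells (right); points are pairs of 1 batch, diamonds with lines the limma estimates with 95% intervals. All intervals include 0, and the widest pairs, such as Creld2 and Xbp1 in batch 3, compare with a library listed at 0.

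Between genotypes, 0 of the 8 genes passed in non-GC cells, beside 0 of 14607 genes (0.0%), of which 243 passed unadjusted, and 0 of 8 passed in GC cells, beside 0 of 14607 (0.0%), of which 959 passed unadjusted. In batches 1 and 2 alone the counts were again 0 of 8 in both cell types, beside 0 of 12257 (0.0%) in non-GC and 1 of 12257 (0.00816%) in GC cells. None passed for the interaction, with 0 of 14607 genes called (0.0%) and 547 unadjusted, and 0 of 12257 (0.0%) and 657 unadjusted in batches 1 and 2. Prdm1 differed by -0.09 (95% interval -1.50 to 1.32) in non-GC and by -0.21 (95% interval -1.62 to 1.20) in GC cells, so changes of either sign of over 1 log2 unit lie within the interval. In GC cells the Ifnar1KO level of Prdm1 was 2.67 times that of Sle1b in batch 1 and 0.293 times in batch 2. Xbp1 in non-GC cells was close in the 2 genotypes, with Ifnar1KO at 1.05, 0.911 and 1.15 times Sle1b in batches 1, 2 and 3, and an interval of -1.39 to 1.44 for the log2 difference.

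Sdc1 in GC cells was the 1 tested gene whose 3 libraries of each genotype did not overlap, with Ifnar1KO lower, beside 2.61% of all genes lower and 0.548% higher without overlap. In non-GC cells 0 of the 8 did so, beside 1.48% of all genes higher and 0.958% lower. Over batches 1 and 2 Sdc1 was again lower in GC cells (17.8% of all genes), and no tested gene was higher in non-GC cells (16.1%). Its difference was -0.76 (SE 0.57, 95% interval -1.99 to 0.47, limma adjusted p = 0.813), and the lowest Sle1b GC value, 0.72 FPKM, came from about 7 reads. Derl3 was lower in Ifnar1KO than in Sle1b non-GC cells without overlap in batches 1 and 2 (8.68% of all genes) and higher in GC cells (7.39%), on about 7 to 42 reads a library. Its differences were -0.51 (SE 0.56, limma adjusted p = 1) in non-GC and 0.63 (SE 0.56, limma adjusted p = 0.840) in GC cells.

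Creld2 was the 1 gene of the set that the authors called in the 17 comparisons used here, which leave out Sle1b GC against non-GC cells of batch 1. In the authors' deposited table of Ifnar1KO non-GC 3 against Sle1b non-GC 3, a comparison of 1 library with 1 other, it was 0 against 4.72 FPKM with a q-value of 0.0407, beside 14.5% of 10321 named loci tested there at a q-value under 0.05. The same comparison in the other batches gave Ifnar1KO at 0.955 and 0.885 times Sle1b. The level of 5.41 FPKM given above for Sle1b non-GC 3 is the same measurement on the scale joined over the tables of its batch.

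By the mean of 3 libraries on the FPKM scale, Ell2, Creld2, Xbp1 and Mzb1 held the 4 highest places in each of the 4 groups, and Tnfrsf17 was listed at 0 except in Sle1b GC cells, where Fkbp11 was lower still. Among those 4 genes Xbp1 was highest in both non-GC groups and lowest in both GC groups, with ranges that overlapped those of the other 3. Ell2 was at 25.7 ± 33.4 and 22.7 ± 20.7 FPKM (SD, n = 3) in Sle1b and Ifnar1KO GC cells and at 11.9 ± 7.25 and 12.8 ± 4.48 FPKM in non-GC cells. For Prdm1 the order of the groups was Sle1b GC at 3.50 ± 3.61, Ifnar1KO GC at 3.20 ± 3.81, Sle1b non-GC at 0.50 ± 0.75 and Ifnar1KO non-GC at 0.32 ± 0.23 FPKM (SD, n = 3). The SD was as large as the mean or larger in the first 3 of these, and neighbours in this order overlapped.

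Across the 12 libraries, with the batch mean taken off each log2(FPKM + 1) value, the 8 tested genes, which form 28 pairs, had correlations of both signs. Pearson's r was 0.71 between Prdm1 and both Derl3 and Ell2 and 0.65 between Mzb1 and Ell2, but -0.83 between Sdc1 and Mzb1 and -0.38 between Prdm1 and Xbp1. Outside all gene lists, the genes most like the mean of the 8 tested genes were Trappc2 (r = 0.91), Bcl7a (r = 0.91), RP23-282L6.1 (r = 0.89), Cdc25c (r = 0.87) and Gm38279 (r = 0.87). These correlations describe 12 points that share batches and groups, and low genes are set by few reads.

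Genes of the wider pathway were read from lists by role in the comparison of GC with non-GC cells over both genotypes, where no gene of the 7 lists passed with all 3 batches. In batches 1 and 2, 2 of 17 tested plasma cell regulators and surface genes were called higher, Igj and Slamf7. Called lower was 1, Cd38, an ectoenzyme that mouse GC B cells are known to lose (-1.29, SE 0.30, limma adjusted p = 0.0494). Most of this list lay below 0, with a median of -0.68 against -0.34 for all genes. With all 3 batches the median was -0.64 against -0.25. Just above the threshold in batches 1 and 2 lay Zbtb20 at 1.18 (limma adjusted p = 0.0508), Itga4 at -1.29 (limma adjusted p = 0.0537) and Cd27 at -2.22 (limma adjusted p = 0.0547). Irf4, which together with Blimp-1 drives the plasma cell fate, was at 23.2 and 33.3 FPKM in Sle1b GC against 29.5 and 62.7 FPKM in Sle1b non-GC cells, and its difference was -0.68 (SE 0.30, limma adjusted p = 0.199), and -0.96 (SE 0.36, limma adjusted p = 0.211) with all 3 batches. Among 8 tested B cell identity factors and antagonists of Prdm1 none passed, with a median of -0.36. Bcl6, the GC repressor of Prdm1, stood at 1.05 (SE 0.26, limma adjusted p = 0.0564) and Pax5 at -0.29 (SE 0.32, limma adjusted p = 0.618). With all 3 batches the list's median was -0.76, and Bcl6 stood at -0.011 (limma adjusted p = 0.993) and Pax5 at -1.33 (limma adjusted p = 0.251).

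Of the 4 lists of ER genes, 1 gene was called in batches 1 and 2, where 4.59% of all genes were called. None of the 8 tested ER stress sensors and transcription factors passed, with 6 above 0 and a median of 0.45 against -0.34 for all genes; with all 3 batches 4 were above 0 and the median was -0.002 against -0.25. None of the 21 chaperones and folding enzymes passed, with 10 above 0 and a median of -0.0073, or 7 and -0.27 with all 3 batches. Among 12 genes of ER-associated degradation, Syvn1, the ubiquitin ligase HRD1, was called higher at 1.46 (SE 0.32, limma adjusted p = 0.0401), but not with all 3 batches (0.64, limma adjusted p = 0.513). Most of this list lay below 0 in batches 1 and 2, with Selk at -1.38 and Edem2 at -1.31. Besides Syvn1, only Herpud1, Ube2j1 and Edem1 lay above 0 there, at 0.50, 0.39 and 0.02. Syvn1 measured 136 and 38.5 FPKM in Sle1b GC against 28.3 and 18.7 FPKM in Sle1b non-GC cells. In Ifnar1KO it measured 81.4 and 34.8 FPKM against 28.2 and 15.8 FPKM. None of the 23 genes of translocation, signal peptidase and transport passed, with 4 above 0 and a median of -0.55, or 2 and -0.57 with all 3 batches. Of 10 tested elongation partners of Ell2, Eaf2, which binds ELL proteins, was called higher at 4.15 (SE 0.44, limma adjusted p = 0.00544), but not with all 3 batches (2.38, limma adjusted p = 0.179). Among its other genes in batches 1 and 2, Aff4, Cdk9 and Ell lay above 0, at 0.37, 0.37 and 0.08. The rest of the list lay below 0, with Aff1 lowest at -1.17. Eaf2 measured 18.3 and 93.8 FPKM in Sle1b GC against 1.21 and 2.60 FPKM in Sle1b non-GC cells, and 23.4 and 74.7 FPKM against 0.747 and 1.48 FPKM in Ifnar1KO.

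**Figure D4:**
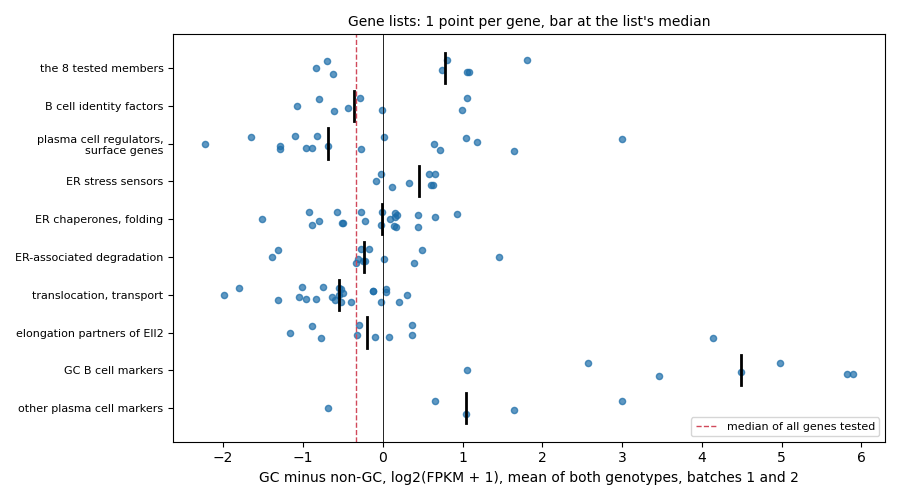
Difference between GC and non-GC cells of log2(FPKM + 1), mean of both genotypes, in batches 1 and 2 (x axis), for the genes of each list (y axis); 1 point is 1 gene, the black bar the list's median and the dashed line the median of all 12257 genes tested. The 8 tested genes have a median of 0.78, the translocation and transport list one of -0.55 and the GC markers one of 4.49.

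Between genotypes the same lists gave no call in either cell type. In GC cells of Ifnar1KO against Sle1b, the ER stress genes Eif2ak3, a kinase that slows translation, and Ddit3, a transcription factor of prolonged stress, lay lower in all 3 batches, by -1.71 (SE 0.66, limma adjusted p = 0.741) and -1.90 (SE 0.77, limma adjusted p = 0.741). Genes of other lists did so too, among them Sec11a, counted with Nmb, at -2.47 (limma adjusted p = 0.703) and Etv6 at -1.52 (limma adjusted p = 0.741). Over all genes tested the median of this comparison was -0.25, and 36.4% lay above 0. None of the named genes passed the threshold.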

How the data were processed

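RNA sequencing of 12 libraries of sorted mouse B cells was analysed from 17 deposited tables, each comparing 1 library with 1 other of its batch. The submitters' processing notes name TopHat2 2.0.9, Bowtie2 2.1.0, CASAVA, Cuffdiff and Cufflinks 2.2.1, and the build GRCm38 (mm10). The deposited values were FPKM, normalized by the authors within each table, with the authors' p-values and q-values. The table of Sle1b non-GC against GC cells of batch 1 was not used here. The genes and lists were chosen with earlier results of these data known.

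Loci with the same symbol were summed. Tables of a library differed by a constant factor, with at most 0.029% of genes at 1 FPKM or more off by over 1%. The factors were fitted by least squares within a batch (Python 3.11.15), which keeps listed zeros; this was decided after the files were seen. Levels set side by side across batches come from separately normalized tables. Genes of at least 1 FPKM in at least 3 libraries were tested with limma 3.58.1 (R 4.3.3) on log2(FPKM + 1), two-sided, with a term for batch, all 12 libraries in the fit, a variance trend and Benjamini-Hochberg adjustment at 0.05. The block follows the authors' tables, which pair libraries only within a batch. Deviations from group means correlated at 0.289, 0.402 and 0.524 or more within batches 1, 2 and 3, and at up to 0.455 between batches 1 and 2, so the check sets batch 3 apart and cannot separate the other 2.

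Named genes were the 9 genes, at most 3 per pathway list and comparison (called genes first, then the largest moderated statistic with 1 sign in all 3 batches) and the 5 best correlates. Igj, Syvn1, Eaf2, Cd27 and, for GC against non-GC cells, Bcl6 and Zbtb20 were named from the lists after their values were seen. So were the genes given beside Syvn1 and Eaf2 from their lists. Depth was read from loci of 800 to 2500 bp without a gene name, whose FPKM times length, less an offset of 140 to 175 bp, is a whole number of reads. The offset was the one that made the most values whole in each library, and it gave whole reads within 0.1 for 100.0% of low loci. Reads per gene assume its longest protein-coding transcript and are estimates. The fit was tested on simulated data. Promoters are RefSeq's.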

Additional observations from a re-analysis of the deposited data

How the results depend on the processing

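Across the 18 alternative settings, 0 of 864 values of the 48 results for single genes passed the threshold, and the lowest adjusted p was 0.0863. Signs were less stable: 53 values changed sign with 1 library left out and 16 otherwise, all of differences whose interval included 0. The cause was not tested.

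Counts of called genes, over all genes, moved most with batch 3. In batches 1 and 2 alone they were 7 in Sle1b for the 2 cell types (0 with all batches), 38 in Ifnar1KO (from 1), 562 over both genotypes (from 4) and 1 for Ifnar1KO against Sle1b in GC cells (from 0). For Ifnar1KO GC against non-GC the count was 0 with no replicate block, 0 with quantile normalization and 3 with the tables joined gene by gene on the log scale, an alternative chosen after seeing the data. Over both genotypes it was 1 with a pseudocount of 0.1 FPKM, 1 with no filter and 0 with no replicate block. With 1 library left out, counts ran from 0 to 1 in Sle1b, 0 to 2 in Ifnar1KO, 1 to 10 over both genotypes, 0 to 1 for the genotypes in GC cells and 0 to 1 for the interaction. The 10 arose without Sle1b GC 3 and without Ifnar1KO GC 3.

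With 0.1 FPKM as pseudocount, Prdm1 between genotypes in non-GC cells turned to 0.15, and in Sle1b GC against non-GC cells Xbp1 turned to 0.048 and Sdc1 to 0.66. With quantile normalization these last became 0.23 and 0.11, Sdc1 between genotypes in non-GC cells became -0.059, Fkbp11 in Ifnar1KO GC against non-GC 0.20, and the interactions of Prdm1 and Ell2 0.023 and 0.15. In batches 1 and 2, the genotype difference in non-GC cells turned to -0.028 for Xbp1 and -0.044 for Ell2, that in GC cells to 0.15 for Xbp1 and 0.22 for Creld2, and the interactions of Prdm1, Xbp1 and Ell2 to 0.047, 0.18 and 0.26.

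With 1 library left out, the genotype difference in non-GC cells ran from -0.51 to 0.22 for Prdm1, -0.14 to 0.16 for Xbp1, -0.21 to 0.52 for Sdc1, -0.54 to 0.47 for Mzb1, -0.30 to 0.063 for Fkbp11 and -0.27 to 0.78 for Ell2. In GC cells it ran from -0.78 to 0.45 for Prdm1, -0.52 to 0.68 for Mzb1, -1.37 to 0.066 for Creld2 and -0.17 to 0.81 for Ell2. GC against non-GC in Sle1b ran from -0.81 to 0.50 for Xbp1, -0.30 to 0.45 for Sdc1, -0.13 to 0.77 for Mzb1 and -0.27 to 0.71 for Ell2, and in Ifnar1KO from -0.12 to 1.08 for Mzb1, -0.68 to 0.48 for Fkbp11 and -0.24 to 0.81 for Ell2. The interaction ran from -0.69 to 0.53 for Prdm1, -0.51 to 0.73 for Mzb1, -0.66 to 1.03 for Creld2 and -0.60 to 0.56 for Ell2. Few reads limit Tnfrsf17, Fkbp11, Derl3 and Sdc1, whose highest levels rested on about 2, 14, 24 and 63 reads.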
